A study of Mus musculus with 32 samples.

Results

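The WT macrophage line was measured as grown in CSF-1 (the groups' label is CONST) and as starved of CSF-1 (label UR), on 2 arrays each. These 4 arrays were taken by their sample titles from the 32 arrays of the study, which covers 4 mouse macrophage lines. WT CONST cells were grown continuously with human recombinant CSF-1 at 120 ng/mL in α-MEM, to which newborn calf serum was added. WT UR cells were kept overnight without CSF-1. The lines are WT, 3ABY721, Y721F and 3AB, named after the CSF-1 receptor they carry and written in the labels behind the prefix M-/-. The WT and 3ABY721 receptors have the phosphorylated tyrosine Tyr-721, and the Y721F and 3AB receptors lack it. The M-/- background is shared by all groups. Each genotype is 1 cultured line, and the design text calls the 2 RNA preparations per group biological replicates. The other lines' CONST and UR arrays, and 8 arrays of starved WT cells given CSF-1 for 0, 20, 60 or 180 min, are used for comparison.

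CSF-1 is the main growth and survival factor of macrophages and acts through the receptor tyrosine kinase CSF-1R, encoded by Csf1r. Ligand binding leads to phosphorylation of receptor tyrosines, which recruit adaptors and start the Ras and ERK cascade and the PI3K and AKT cascade. In macrophages these pathways drive D-type cyclins, ribosome production and metabolism, and AKT keeps FOXO transcription factors out of the nucleus. Without CSF-1, macrophages leave the cell cycle over time and later die.

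Values are the deposited log2 signals of probe sets, so a difference of 1 is a 2-fold change, and differences are CONST minus UR. A gene was called changed where limma's adjusted p was below 0.05 and the fold change was above 1.5. Of 19938 genes, 459 (2.3%) were called higher and 601 (3.01%) lower in CONST. The median difference of all genes was -0.02, and 9045 genes had a positive difference. Array medians over the study ran between 5.97 and 6.22. Csf1r itself read 13.41 and 13.28 in CONST and 13.32 and 13.27 in UR, a difference of 0.05 (SE 0.12, adjusted p = 0.875).

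The 2 CONST arrays stood apart from each other. Their correlation across genes was 0.9871, with 1615 genes over 1.5-fold apart, whereas the UR arrays correlated at 0.9906 with 988 such genes. CONST array II correlated with UR array II at 0.9872. CONST array I lay further from the UR mean than CONST array II for 373 of the 459 higher genes and for 452 of the 601 lower genes. The median difference from the UR mean was 1.02 for CONST I and 0.7 for CONST II among the higher genes, and -0.99 and -0.74 among the lower genes. Leaving out CONST I gave 124 higher and 242 lower genes, and leaving out CONST II gave 962 and 1032. Omitting UR I gave 115 and 297, and omitting UR II gave 277 and 412. Only 62 of the higher and 146 of the lower genes were called in each of these 4 fits.

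The largest rises in grown cells included chemokines and D-type cyclins. Ccl7, a monocyte-attracting chemokine, read 12.12 and 12.04 in CONST and 8.25 and 8.9 in UR, a rise of 3.5 (11.4-fold, SE 0.3, adjusted p = 2.43e-05). Ccl2, the main ligand of the chemokine receptor CCR2, read 12.27 and 12.28 in CONST and 8.71 and 9.81 in UR, a rise of 3.02 (SE 0.35, adjusted p = 0.000236). For both, the CONST arrays agreed closely and the starved arrays were the more spread. Ccl12 read 11.01 and 8.8 in CONST and 6.36 and 6.82 in UR, a rise of 3.32 (SE 0.46, adjusted p = 0.000959). Its CONST arrays lay far apart, and without CONST I the rise was 2.21 (adjusted p = 0.000802). Cxcl3, a neutrophil-attracting chemokine, rose by 2.66 (SE 0.36, adjusted p = 0.000928), with 11.0 and 9.5 in CONST and 7.94 and 7.25 in UR.

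Ccnd1, which encodes cyclin D1 and opens the G1 phase with CDK4 and CDK6, read 12.02 and 11.8 in CONST and 7.91 and 9.33 in UR, a rise of 3.29 (9.78-fold, SE 0.44, adjusted p = 0.000714). Ccnd2, encoding cyclin D2, read 12.08 and 11.04 in CONST and 8.39 and 9.33 in UR, a rise of 2.7 (SE 0.33, adjusted p = 0.000366). The groups did not overlap for either cyclin, and both kept their call whichever array was left out. Odc1, the first enzyme of polyamine synthesis, read 12.01 and 12.12 in CONST and 9.48 and 10.09 in UR, a rise of 2.28 (SE 0.22, adjusted p = 5.76e-05). Plau, the urokinase plasminogen activator, had the tightest replicates of the leading genes, with 10.19 and 10.24 in CONST and 7.86 and 7.9 in UR, a rise of 2.34 (SE 0.2, adjusted p = 2.47e-05). Ptgs2, the inducible cyclooxygenase of prostaglandin synthesis, read 9.38 and 8.8 in CONST and 6.36 and 6.83 in UR, a rise of 2.5 (SE 0.27, adjusted p = 0.000164).

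Further large rises rested more on single arrays. Id1, an inhibitor of basic helix-loop-helix factors, rose by 2.7 (adjusted p = 0.00496), with 10.67 and 8.33 in CONST and 6.76 and 6.85 in UR. Epha2, an ephrin receptor, rose by 2.22 (adjusted p = 0.0011). Both stayed called in every omission, with 1.52 and 1.5 on CONST II alone. Trem1, an activating myeloid receptor, read 10.73 and 7.01 in CONST and 5.89 and 5.35 in UR (3.25, SE 0.73, adjusted p = 0.0181), and its adjusted p was 0.0703 without UR I and 0.1 without UR II. On CONST II alone its rise was 1.39. Arg1, the arginase that hydrolyses arginine to ornithine, read 10.28 and 8.72 in CONST and 7.44 and 5.75 in UR (2.9, SE 0.73, adjusted p = 0.0317). Its adjusted p was 0.278 without CONST I and 0.223 without UR II. Nt5e, which makes extracellular adenosine, and Ppbp, a platelet chemokine precursor, were called at adjusted p = 0.0304 and 0.0495. On CONST II alone they differed by 1.02 and 0.7 (adjusted p = 0.213 and 0.372), and both also lost their call without either UR array.

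**Figure D1:**
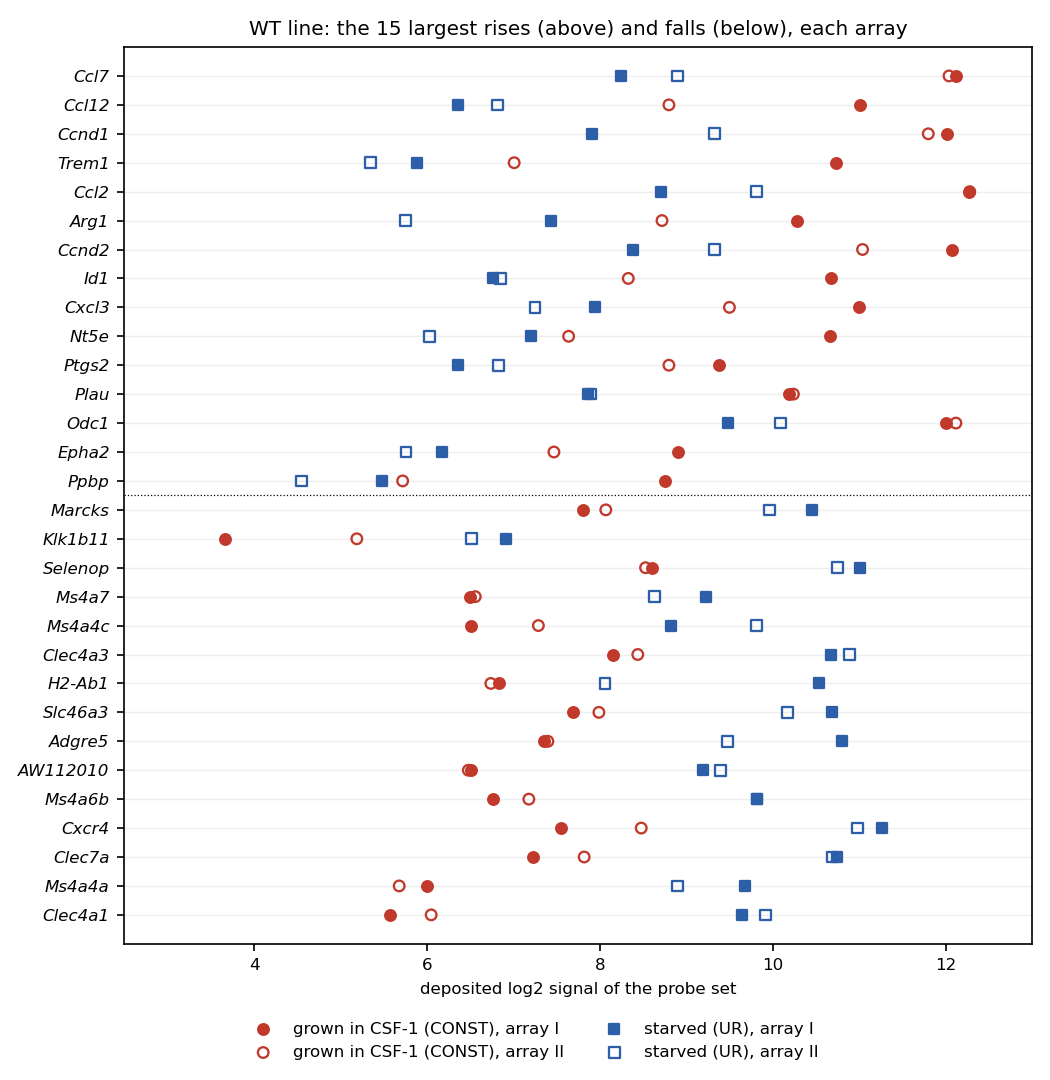
Deposited log2 signal (horizontal axis) of the 15 genes with the largest rise and the 15 with the largest fall in WT CONST against WT UR; each symbol is 1 array, circles CONST and squares UR, filled for array I and open for array II. Plau and Odc1 show tight CONST pairs, while Trem1 in CONST spans 7.01 to 10.73.

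Genes that report and restrain ERK signalling rose in grown cells. Of 17 measured members of the ERK feedback list, 9 were called higher and 0 lower (limma, also 0 lower at an unadjusted p below 0.05), and the list's median was 0.8. Etv5, an ETS transcription factor, read 8.94 and 8.58 in CONST and 6.61 and 6.62 in UR, a rise of 2.14 (SE 0.3, adjusted p = 0.000959). Dusp4, a nuclear phosphatase of MAP kinases, read 7.66 and 8.14 in CONST and 5.65 and 6.1 in UR, a rise of 2.02 (SE 0.24, adjusted p = 0.000311). Errfi1, an inhibitor of EGF receptor family kinases, rose by 1.7 and Phlda1 by 1.52. Dusp5, Ets2, Spred1, Spred2 and Etv4 were the other called members. The list's call count was 3 without CONST I and 2 without UR I, and Etv5 and Dusp4 were called in all 4 omissions. Among reported miR-21 targets, Spry1 and Spry2, further brakes of the cascade, differed by 0.46 (adjusted p = 0.118) and -0.01 (adjusted p = 0.99).

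Immediate early genes, which respond to growth factors within minutes, were mostly not called. Of 25 measured, 2 were called higher and 0 lower, where 2.3% of all genes were called higher and 3.01% lower. At an unadjusted p below 0.05 (limma), 6 members (24.0%) were higher and 1 (4.0%) lower, against 9.07% and 11.0% of all genes. Fosl1, an AP-1 subunit that accumulates later than FOS, rose by 1.76 (SE 0.21, adjusted p = 0.000315), with 8.8 and 8.12 in CONST and 6.85 and 6.54 in UR. Rhob, a small GTPase, rose by 1.45 (adjusted p = 0.0473) and was not called without CONST I, UR I or UR II. Fos read 7.88 and 9.08 in CONST and 8.18 and 9.04 in UR, so its groups overlapped. Egr1 read 7.71 and 7.78 in CONST and 6.71 and 6.25 in UR, a difference of 1.26 that missed the threshold (SE 0.59, adjusted p = 0.249).

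Cell cycle genes beyond G1 were not called. Of 33 DNA replication and S-phase genes, 0 were called by limma, with differences from -0.35 to 0.68 and a median of -0.1; at an unadjusted p below 0.05 there were 2 higher and 4 lower. Of 31 mitotic genes, 0 were called, with differences from -0.4 to 0.55 and a median of 0.08; at an unadjusted p below 0.05 there were 2 higher and 1 lower. Both CONST arrays were above both UR arrays for 11 mitotic genes and below for 4, and above for 2 replication genes and below for 10, where 19.5% of all genes lay above and 24.7% below. Mki67, the proliferation marker Ki-67, read 11.03 and 10.87 in CONST and 11.19 and 10.95 in UR (-0.12, SE 0.12, adjusted p = 0.67). Top2a, the topoisomerase of dividing cells, differed by -0.1 (SE 0.13) and Mcm5, a subunit of the replicative helicase, by -0.1 (SE 0.13). Leaving out 1 array gave at most 1 called gene in the replication list and at most 1 per direction in the mitotic list.

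Of 19 measured G1 cyclins, CDKs and CDK inhibitors, 5 were called higher and 2 lower, with a median of -0.25. Beside the D-type cyclins, Cdk6, a cyclin D partner, rose by 1.17 (SE 0.23, adjusted p = 0.00826), and its adjusted p was 0.0921 without CONST I and 0.0916 without UR I. Cdkn2b, an inhibitor of CDK4 and CDK6, rose by 0.68 (adjusted p = 0.00527), although it acts against the cyclins that rose with it, and it was not called without CONST I. E2f3 was the fifth called rise, and E2f2, a transcription factor of S-phase entry, and Cdkn2c, another CDK4 and CDK6 inhibitor, fell by 0.64 and 0.59. E2f2 lost its call in all 4 omissions, and E2f3 and Cdkn2c in 3. Cdkn1b, the inhibitor p27, read 8.14 and 8.78 in CONST and 9.28 and 9.09 in UR (-0.72, adjusted p = 0.235).

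Ribosome biogenesis genes were higher in grown cells as a block. All 24 measured members had both CONST arrays above both UR arrays, where 19.5% of all genes did, and their median difference was 1.12. Called members numbered 8, with 0 lower (limma, also 0 at an unadjusted p below 0.05). Dkc1, the pseudouridine synthase of small nucleolar particles, read 10.64 and 9.51 in CONST and 8.34 and 8.56 in UR, a rise of 1.62 (SE 0.41, adjusted p = 0.0321). Nop2 and Nop58, which modify or guide modification of ribosomal RNA, rose by 1.38 and 1.32, and Wdr12, needed for the large subunit, by 1.36. Rrp12, Gnl3, Nop16 and Ncl completed the called set.

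The ribosome difference was largest on CONST array I. The list mean was 10.46 on CONST I and 9.61 on CONST II, against 8.84 on UR I and 9.07 on UR II. Without CONST I 0 members were called, without UR I 0, without UR II 3 and without CONST II 23. Nucleotide synthesis moved with it: 3 of 14 measured genes rose, the median was 0.72, and the list means were 10.45 and 9.92 in CONST against 9.43 and 9.59 in UR. Cad, which starts pyrimidine synthesis, rose by 1.15, Ctps, which makes CTP, by 1.36 and Nme1 by 1.06. Without CONST I or UR I 0 of these were called, against 9 without CONST II.

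Myc, whose product drives ribosome production, read 10.55 and 9.58 in CONST and 9.52 and 9.33 in UR, a difference of 0.64 (SE 0.45, adjusted p = 0.489). Of 12 measured genes of the MYC and MXD network, 1 was called, Mxd4, an antagonist of MYC, which fell by 0.92 (adjusted p = 0.0184) but was not called without CONST I or UR I. MYC with its partner MAX binds the E-box CACGTG. This motif, which reads alike on both strands, was in 15.7% of 362 promoters of risen genes, in 7.27% of 495 promoters of fallen genes and in 8.4% of all 15563 promoters. Other motifs were scanned too, with these shares in risen and in all promoters. CHR had 13.5% and 15.2%, the CCAAT box 33.7% and 38.3%, and E2F 8.84% and 6.68%. SRE had 0.829% and 1.16%, FOXO 1.38% and 3.03%, and CARE 2.49% and 3.17%. In the ribosome biogenesis list E2F was in 4 of 19 promoters (21.1%) and the E-box in 5 (26.3%). The E-box share was 10 of 28 (35.7%) in the lysosome and proton pump list and 4 of 23 (17.4%) in the FOXO and starvation-linked list. Both lists had more members called lower than higher in CONST. The windows run from 250 bases before to 50 bases after the gene start (RefSeq, GRCm38.p6). Of the 362 risen genes with a promoter here, the 3 with the largest differences that hold the motif are printed 5′ to 3′ to show where it lies, with the E-box in capitals.
Cxcl3, chr5:90785851-90786150, plus strand: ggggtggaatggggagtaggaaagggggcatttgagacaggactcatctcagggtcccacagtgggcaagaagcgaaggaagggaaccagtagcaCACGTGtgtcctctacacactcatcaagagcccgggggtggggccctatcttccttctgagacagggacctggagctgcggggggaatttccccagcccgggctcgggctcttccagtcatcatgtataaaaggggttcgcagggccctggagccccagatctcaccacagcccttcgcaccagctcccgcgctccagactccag
Ptgs2, chr1:150099781-150100080, plus strand: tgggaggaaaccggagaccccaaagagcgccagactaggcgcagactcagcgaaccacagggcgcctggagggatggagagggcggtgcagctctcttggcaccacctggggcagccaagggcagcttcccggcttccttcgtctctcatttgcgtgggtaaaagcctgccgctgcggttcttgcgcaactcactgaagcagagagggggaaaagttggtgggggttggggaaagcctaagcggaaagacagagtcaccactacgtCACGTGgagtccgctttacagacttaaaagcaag
Met, chr6:17463707-17464006, plus strand: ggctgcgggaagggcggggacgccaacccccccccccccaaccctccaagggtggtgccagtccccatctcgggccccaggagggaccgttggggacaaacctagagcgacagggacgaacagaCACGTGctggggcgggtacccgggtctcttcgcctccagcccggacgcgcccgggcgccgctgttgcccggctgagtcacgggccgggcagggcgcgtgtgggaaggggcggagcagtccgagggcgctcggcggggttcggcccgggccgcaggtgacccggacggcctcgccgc
Counted from the gene start, the E-boxes begin at -155, 16 and -126. Met, the hepatocyte growth factor receptor, read 8.15 and 5.63 in CONST and 4.87 and 4.67 in UR, a rise of 2.12 (adjusted p = 0.0239) that was 0.86 (adjusted p = 0.0792) without CONST I and also lost its call without either UR array. Both UR values lie below the 20th percentile of signal (4.929), so the size of this rise is uncertain. Cxcl3 and Ptgs2 kept theirs. These 3 genes were chosen after their values were seen, and a match of letters does not show binding.

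Glucose transport and glycolysis rose in grown cells. Of 21 measured members of the glycolysis and hypoxia-linked list, 8 were called higher and 0 lower (limma, also 0 at an unadjusted p below 0.05), with a median of 0.74. Slc2a1, the glucose transporter GLUT1, read 12.12 and 12.51 in CONST and 10.67 and 10.31 in UR, a rise of 1.82 (3.54-fold, SE 0.29, adjusted p = 0.00264). Slc16a3, a lactate exporter, rose by 1.18, Pfkl, a subunit of phosphofructokinase, by 1.16 and Hilpda, a lipid droplet protein, by 1.64. Pfkp, Pgam1, Pkm and Tpi1 also rose, by 0.6 to 0.86. Slc2a1, Pfkl and Pgam1 were called in all 4 omissions, the other 5 lost their call at least once, and the list had 4 to 7 calls. Unlike the ribosome list, its mean was higher on CONST II (10.76) than on CONST I (10.18), against 9.83 and 9.61 in UR.

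Of 28 genes linked to amino acid stress and the unfolded protein response, 5 were called higher and 0 lower (1 at an unadjusted p below 0.05), with a median of 0.12. Phgdh, the first enzyme of serine synthesis, read 9.31 and 9.51 in CONST and 8.48 and 8.16 in UR, a rise of 1.09 (SE 0.18, adjusted p = 0.00273) that held in every omission. Psat1, the next enzyme, rose by 0.88, and Mthfd2 and Shmt2 of mitochondrial folate metabolism rose by 0.92 and 0.84. Slc7a5, a transporter of large neutral amino acids, rose by 1.46. The other called members each lost their call in at least 1 omission, and without CONST I only 1 member of the list was called, against 7 without CONST II.

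Of 20 measured sterol synthesis and uptake genes, 2 were called higher, Sqle (squalene epoxidase) by 1.14 and Hsd17b7 by 0.88, and the median was 0.38. Hsd17b7 lost its call in each omission of 1 array, and Sqle in every one but that of CONST I. The sterol list mean was 9.39 and 10.25 in CONST against 9.29 and 9.49 in UR, so only CONST II stood clear of both starved arrays. Of 11 fatty acid genes, with a median of 0.22, 2 rose, Me1, which supplies NADPH, by 1.11 (SE 0.18, adjusted p = 0.00301), and Fasn, the fatty acid synthase, by 0.91 (adjusted p = 0.031). Me1 was called in every omission and Fasn was not called without CONST I, UR I or UR II. Targets of LXR, the nuclear receptor that senses sterols, went the other way: 5 of 8 fell, 0 rose (limma, also 0 at an unadjusted p below 0.05), and the median was -1.28.

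Abcg1, a cholesterol exporter, read 10.53 and 10.88 in CONST and 12.31 and 11.75 in UR, a difference of -1.32 (SE 0.19, adjusted p = 0.00131). Abca1, a second exporter, fell by 2.08 (adjusted p = 0.0135), but its adjusted p was 0.0659 without CONST II and 0.126 without UR I. Mylip, which degrades the LDL receptor, fell by 1.64 and was at adjusted p = 0.0544 without UR I. Pltp, the phospholipid transfer protein, read 8.19 and 10.41 in CONST and 10.78 and 11.04 in UR, and its difference of -1.61 became -0.5 (adjusted p = 0.276) without CONST I and also lost its call without either UR array. Smpdl3a fell by 1.24 and, like Abcg1, kept its call in every omission. Apoe, also an LXR target, differed by 0.02 (adjusted p = 0.956).

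**Figure D2:**
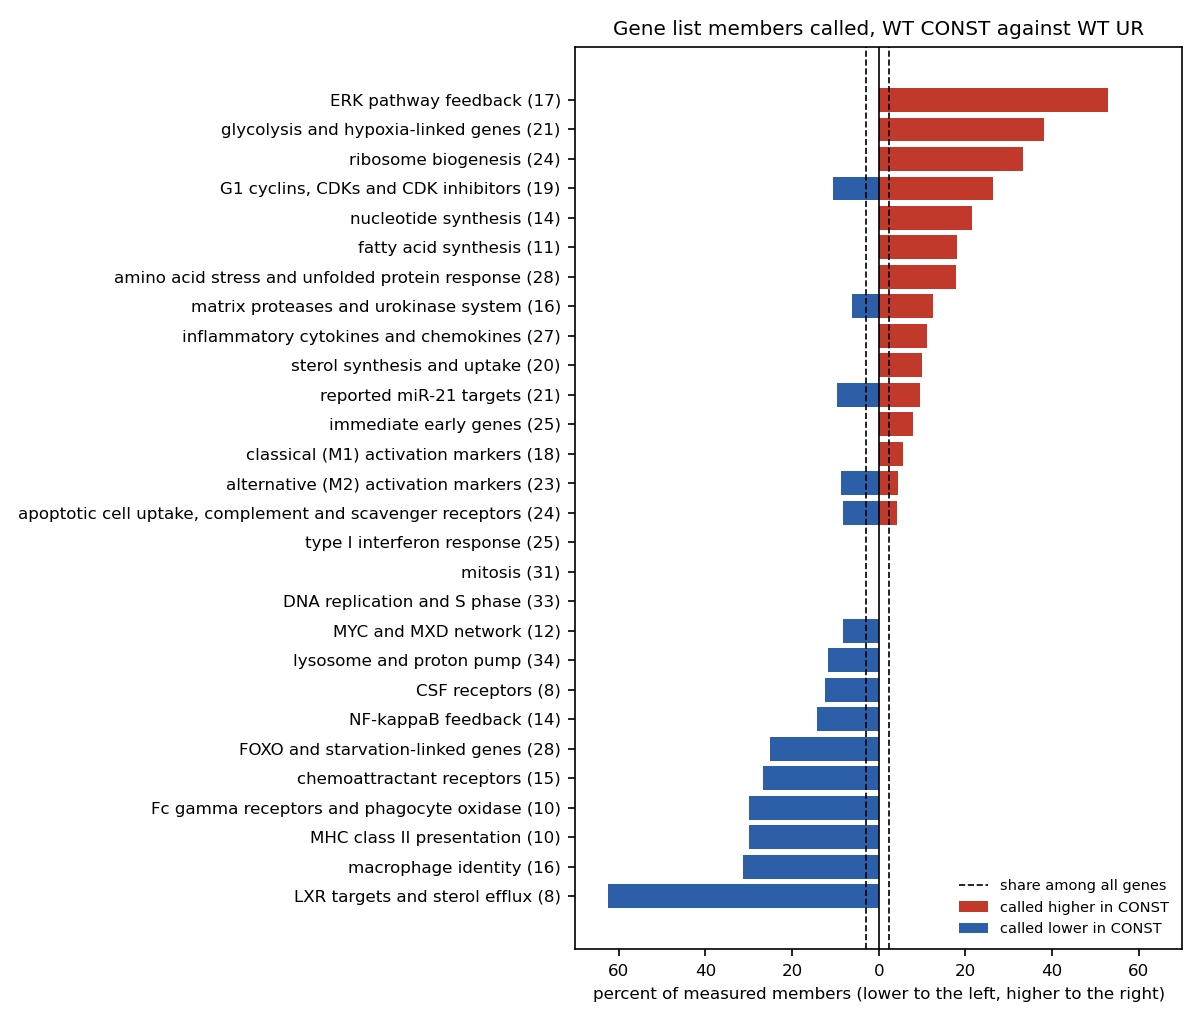
Percent of the measured members of each of 28 gene lists that were called higher (right of 0) or lower (left of 0) in WT CONST against WT UR, with the number measured in brackets. The dashed lines mark the shares among all genes, 2.3% higher and 3.01% lower; LXR targets (5 of 8 lower) and ERK feedback (9 of 17 higher) have the longest bars.

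The largest falls in grown cells, meaning genes higher in starved cells, included C-type lectins and MS4A membrane proteins. Clec4a1, a lectin of the DCIR group, read 5.57 and 6.05 in CONST and 9.65 and 9.92 in UR, a difference of -3.98 (15.7-fold, SE 0.36, adjusted p = 4.57e-05). Clec7a, the beta-glucan receptor dectin-1, read 7.23 and 7.82 in CONST and 10.74 and 10.69 in UR, a difference of -3.19 (SE 0.19, adjusted p = 1.64e-06). Clec4a3 fell by 2.49. In both lectins given in full, every starved array lay more than 2 units above every grown one. Of 33 measured Clec genes, a family counted after its values were seen, 6 were called lower.

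Ms4a4a read 6.0 and 5.68 in CONST and 9.68 and 8.9 in UR, a difference of -3.45 (SE 0.34, adjusted p = 5.76e-05). Ms4a6b read 6.77 and 7.18 in CONST and 9.82 on both UR arrays, a difference of -2.84 (SE 0.21, adjusted p = 6.37e-06). Ms4a4c fell by 2.42 and Ms4a7 by 2.4. Of 19 measured Ms4a genes, which encode membrane proteins with 4 spans and were counted after their values were seen, 8 were called lower and 0 higher (also 0 at an unadjusted p below 0.05). Members of the Ms4a4, Ms4a6 and Clec4a groups are close relatives in sequence, so their probe sets may share signal and their separate levels are uncertain.

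Other genes among the 15 largest falls had the following values. Cxcr4, the receptor of the chemokine CXCL12, read 7.55 and 8.48 in CONST and 11.26 and 10.98 in UR, a difference of -3.1 (SE 0.35, adjusted p = 0.000194). Adgre5, the adhesion receptor CD97, fell by 2.76, Slc46a3, a lysosomal transporter, by 2.59 and the transcript AW112010 by 2.8. Selenop, a secreted carrier of selenium, read 8.6 and 8.53 in CONST and 11.01 and 10.75 in UR, a difference of -2.32 (SE 0.17, adjusted p = 5.99e-06). Marcks, an actin-binding substrate of protein kinase C, fell by 2.27 (SE 0.21). Klk1b11 fell by 2.28, with 1 CONST array at 3.67, below the 20th percentile of signal (4.929). Each gene named in this paragraph was called in all 4 omissions.

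Genes linked to FOXO factors and starvation were lower in grown cells. Of 28 measured, 7 were called lower and 0 higher (limma, also 0 at an unadjusted p below 0.05), and the median was -0.57. Trp53inp1, a stress and autophagy protein, read 8.29 and 9.07 in CONST and 10.69 and 10.3 in UR, a difference of -1.82 (SE 0.26, adjusted p = 0.00131). Ypel2 fell by 1.45 (SE 0.23, adjusted p = 0.00251). Klhl24 fell by 1.92 and Tsc22d3, the glucocorticoid-induced leucine zipper, by 1.08, and Pink1, Bcl2l11 and Map1lc3b were the other called members. Ccng2, a cyclin of arrested cells, read 7.86 and 9.08 in CONST and 9.34 and 9.11 in UR (-0.76, adjusted p = 0.396). The list kept 3 calls without CONST I and 3 without UR I, and Trp53inp1 and Ypel2 were called throughout.

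Of 10 measured MHC class II presentation genes, 3 fell, 0 rose (limma, also 0 at an unadjusted p below 0.05), and the median was -1.15. H2-Ab1, a class II beta chain, read 6.83 and 6.74 in CONST and 10.54 and 8.06 in UR, a difference of -2.52 (SE 0.68, adjusted p = 0.0437). H2-DMa, which loads peptide, fell by 1.23, and Ciita, the master regulator of class II genes, by 1.07. The difference was larger on UR array I: list means were 7.79 and 7.93 in CONST against 9.49 on UR I and 8.33 on UR II. Both CONST arrays lay below both UR arrays for 8 of the 10 genes, where 24.7% of all genes did. Without UR I 0 members were called and H2-Ab1 differed by -1.27 (adjusted p = 0.332). Without CONST I 0 were called, without CONST II 2 and without UR II 5.

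Of 10 Fc gamma receptor and phagocyte oxidase genes, 3 were called lower, 0 had a positive difference and the median was -0.52. Cybb, the catalytic subunit of the oxidase, read 10.58 and 11.2 in CONST and 12.45 and 12.96 in UR, a difference of -1.82 (SE 0.34, adjusted p = 0.0066), with an adjusted p of 0.0828 without CONST I and 0.0593 without UR II. Fcgr4, an activating receptor for immunoglobulin G, fell by 1.01 and Ncf4 by 0.71, and both were called only on the full set and without CONST II. Of 34 measured lysosome and proton pump genes, 4 were called lower, Ctsh, Hexa, Ctsf and Tfeb, by 0.6 to 0.9, and 33 had a difference of 0 or below, with a median of -0.36. That count was 14 without CONST II, 1 without CONST I, 0 without UR I and 3 without UR II.

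Mertk, a receptor for apoptotic cells, read 8.27 and 8.2 in CONST and 9.78 and 10.26 in UR, a difference of -1.78 (SE 0.17, adjusted p = 5.36e-05), called in every omission. It was 1 of 2 called falls, with Mrc1, among 24 genes of apoptotic cell uptake, complement and scavenging, where Itgav, an integrin chain, rose by 0.72 (not called without CONST I, UR I or UR II). Mrc1, the mannose receptor, read 8.16 and 8.55 in CONST and 9.81 and 9.17 in UR, a difference of -1.14 (SE 0.23, adjusted p = 0.011), with an adjusted p of 0.118 without CONST I and 0.123 without UR I. C1qa, a complement subunit, read 9.04 and 6.55 in CONST and 9.03 and 7.73 in UR, so replicates differed by more than the groups.

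Macrophage identity genes themselves were high in both states. Their list means were 10.29 and 10.34 in CONST and 10.76 and 10.99 in UR, and 5 of 16 fell, Mertk, Maf, Adgre1, Lyz2 and Sirpa, with a median of -0.55. The part of other cell types in any result was not tested. Granulocyte and mast cell genes, 7 of 14 below the 20th percentile of signal, averaged 4.86 to 4.99, lymphocyte genes 5.07 to 5.3, dendritic cell genes 5.9 to 6.09 and fibroblast genes 6.19 to 6.29 across the 4 arrays. Osteoclast genes averaged 7.28 and 7.92 in CONST and 7.49 and 8.0 in UR. Dcstamp, a fusion protein of osteoclasts, was called higher (1.58), and Irf8, Cd2 and Epor lower. The other osteoclast genes were not called. The 10 measured ran from -1.38 to 1.58, with a median of -0.05. At an unadjusted p below 0.05 (limma), 1 of them was higher and 2 were lower. Dcstamp and Irf8 each lost their call in 3 omissions.

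**Figure D3:**
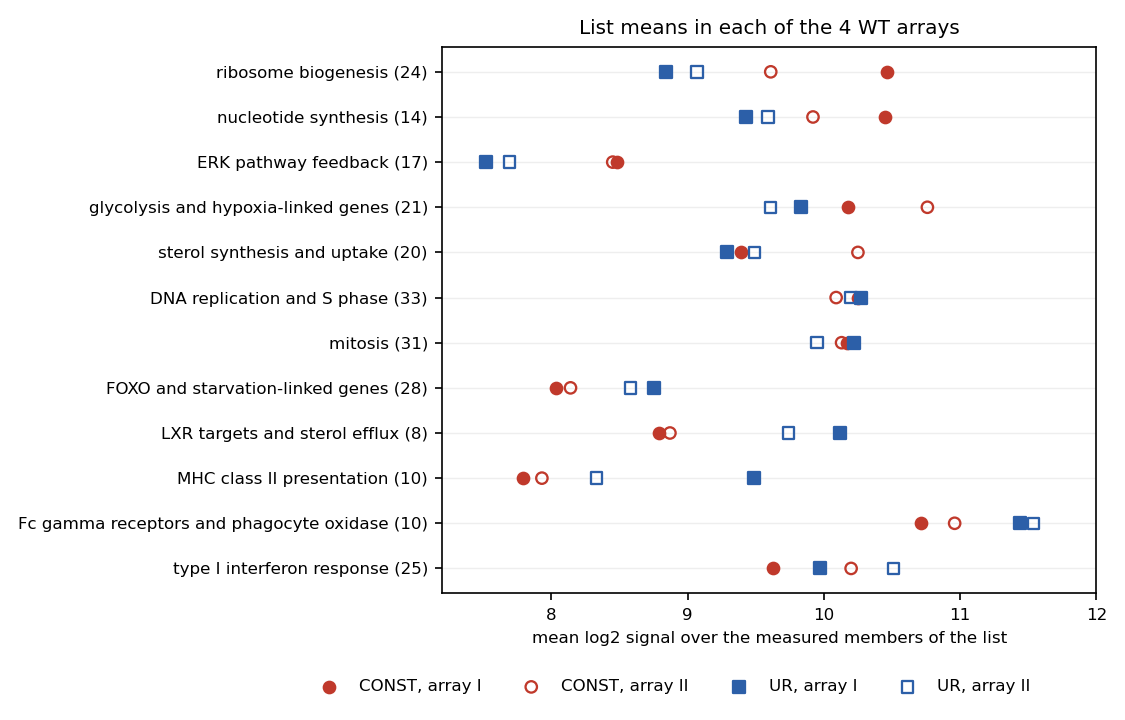
Mean log2 signal (horizontal axis) over the measured members of 12 gene lists on each of the 4 WT arrays, circles CONST and squares UR, filled for array I and open for array II. CONST I is highest for ribosome biogenesis (10.46) and CONST II for glycolysis (10.76), while mitosis and DNA replication show all 4 arrays close together.

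Most inflammatory genes were not called. Of 27 measured cytokines and chemokines, 3 were called higher, Ccl7, Ccl12 and Ccl2, and 0 lower, with a list median of 0.02. Among all genes 2.3% were called higher. At an unadjusted p below 0.05 (limma), 7 members (25.9%) were higher and 2 (7.41%) lower, against 9.07% and 11.0% of all genes. Cxcl3, given above, is not on this list. Tnf read 9.79 and 9.97 in CONST and 8.49 and 9.79 in UR (0.74, adjusted p = 0.172), and Il1b read 5.21 and 5.48 in CONST and 5.32 and 6.65 in UR (-0.64, adjusted p = 0.289). Of 14 NF-κB feedback genes, 2 fell, Birc3, an inhibitor of apoptosis, by 1.03 (SE 0.16, adjusted p = 0.00184) and Nfkb2 by 0.64. Nfkb2 lost its call without CONST I, UR I or UR II. Type I interferon response genes had 0 of 25 called by limma, 8 lower at an unadjusted p below 0.05 and a median of -0.37. Their means were 9.63 and 10.2 in CONST and 9.97 and 10.51 in UR, so array II was above array I in both states, and 9 were called lower without CONST II.

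Few polarisation markers were called. Of 18 classical (M1) markers 1 rose, Ptgs2, and of 23 alternative (M2) markers 1 rose, Arg1, and 2 fell, Clec7a and Mrc1. Among all genes 2.3% were called higher and 3.01% lower, and the list medians were -0.04 (M1) and 0.04 (M2). Nos2, the inducible nitric oxide synthase, read 5.87 and 7.16 in CONST and 6.05 and 6.07 in UR. Of 15 chemoattractant receptors 4 fell. Beside Cxcr4, Ccrl2 and Ptafr, the receptor of platelet-activating factor, fell by 1.46 each, and Ccr2, the receptor of CCL2, by 1.21 (adjusted p = 0.00514, and 0.0517 without UR I). Both CONST values of Ccr2 (4.57 and 4.64) lie below the 20th percentile of signal, so its size is uncertain. Ccrl2 and Ptafr were not called without CONST I or UR II. Among 8 CSF receptor genes only Csf2ra, a GM-CSF receptor chain, was called, a difference of -0.66 that was lost without CONST I or UR I.

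Of 16 matrix protease genes, Plau and Adam8 (0.82) rose and Timp2, a metalloprotease inhibitor, fell by 1.08. Adam8 lost its call without CONST I or UR I, and Timp2 without CONST I, UR I or UR II. Among 21 reported targets of miR-21, Jag1, a Notch ligand, rose by 2.03 (SE 0.38, adjusted p = 0.00676) and by 1.11 on CONST II alone. Rhob, given above, rose, Marcks fell, and Pdcd4, a translation inhibitor, fell by 1.34 (adjusted p = 0.00796, and 0.0793 without CONST I and 0.0973 without UR I). The list median was -0.08. Of 300 microRNA genes on the array, 1 was called, Mir221, which read 5.6 and 5.65 in CONST and 5.13 and 4.88 in UR. Its rise of 0.62 (SE 0.16, adjusted p = 0.034) lost its call in each omission. The mature arms from RefSeq (GRCm38.p6, minus strand) are shown to identify it, with the seed, bases 2 to 8, in capitals.
mmu-miR-221-3p, chrX:19146307-19146329: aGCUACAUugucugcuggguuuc
mmu-miR-221-5p, chrX:19146344-19146369: aCCUGGCAuacaauguagauuucugu
The probe set measures the transcript of the gene and does not separate these arms.

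The differences in the other lines use no WT array, although the fit shares its estimate of spread over all 16 steady-state arrays. Grown against starved cells gave 693 genes higher (3.48%) and 292 lower (1.46%) in Y721F, 148 (0.742%) and 134 (0.672%) in 3ABY721, and 86 (0.431%) and 51 (0.256%) in 3AB. Of the 459 genes higher in WT CONST, 442 had a positive difference in Y721F, 457 in 3ABY721 and 447 in 3AB. Among all genes 50.4%, 49.8% and 47.6% did. The 459 genes had a median of 0.86 in WT and of 0.54, 0.6 and 0.54 in those lines. Called in the same direction were 162, 104 and 59 of them, which is 35.3%, 22.7% and 12.9% of the WT genes and 23.4%, 70.3% and 68.6% of each line's own. Of the 601 lower genes, 521 (86.7%) had a negative difference in Y721F, 586 (97.5%) in 3ABY721 and 572 (95.2%) in 3AB. Among all genes 49.3%, 49.7% and 51.7% did. The 601 genes had a median of -0.85 in WT and of -0.35, -0.52 and -0.38 in those lines. Of them 142, 117 and 43 were also called lower there (23.6%, 19.5% and 7.15% of the WT genes, and 48.6%, 87.3% and 84.3% of each line's own). In Y721F, 2 were called in the opposite direction. Both gene sets were selected by their WT difference, which favours large WT medians. The medians therefore do not compare the size of response between lines.

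Genes called the same way in all 4 lines numbered 42 higher and 22 lower. The higher ones were led by Ccl7, Ccnd1, Ccl2, Plau and Odc1. Ccnd1 rose by 3.29 in WT, 2.17 in Y721F, 2.75 in 3ABY721 and 2.52 in 3AB. Also in this set were Etv5, Slc2a1, Me1 and Phgdh. The lower ones were led by Clec7a (-3.19, -3.64, -2.61 and -1.51 in WT, Y721F, 3ABY721 and 3AB), Adgre5, Slc46a3, Clec4a3 and Selenop, and included Mertk and Marcks. The ribosome biogenesis list, with 8 calls in WT, had 0 in each other line (limma; 0, 8 and 3 higher at an unadjusted p below 0.05 in Y721F, 3ABY721 and 3AB), and medians of 0.11 in Y721F, 0.61 in 3ABY721 and 0.54 in 3AB. None of its members passed the test of a difference between lines. The glycolysis list had 8 rises in WT, 15 in Y721F, 10 in 3ABY721 and 4 in 3AB.

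The difference between lines in their response to growth was itself tested. Against Y721F, 3 genes (0.015%) had a higher growth effect in WT and 15 (0.0752%) a lower one. Ms4a6b fell by 2.84 in WT and differed by 0.22 in Y721F, a difference between effects of -3.06 (SE 0.3, adjusted p = 0.000674). Ms4a4a gave -3.18 (SE 0.48, adjusted p = 0.0184), AW112010 -2.42 (adjusted p = 0.00153) and Ms4a7 -2.04 (adjusted p = 0.0226). Ccl12 rose by 3.32 in WT and differed by -0.47 in Y721F, which makes 3.78 between the effects (SE 0.65, adjusted p = 0.0442). Mrc1 fell by 1.14 in WT and rose by 1.27 in Y721F, which makes -2.41 (SE 0.33, adjusted p = 0.0109). These counts were 1 and 12 without CONST I, 98 and 316 without CONST II, 0 and 4 without UR I, and 7 and 17 without UR II.

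Against 3AB, 2 genes (0.01%) had a higher growth effect in WT and 0 a lower one (limma, 723 lower at an unadjusted p below 0.05). Tm4sf1, a tetraspanin-like membrane protein, read 9.17 and 9.13 in CONST and 6.95 and 7.06 in UR, a rise of 2.14 in WT against a difference of 0.34 in 3AB (difference 1.81, SE 0.2, adjusted p = 0.006). Susd4, a complement regulator, rose by 1.09 in WT against -0.36 in 3AB (difference 1.44, SE 0.18, adjusted p = 0.00934). Against 3ABY721, which like WT carries Tyr-721, 0 genes passed in either direction by limma, with 202 higher and 478 lower at an unadjusted p below 0.05. Without CONST II, 21 and 18 passed there and 31 and 61 against 3AB. Against 3AB the higher count was 1 without CONST I, 0 without UR I and 1 without UR II, so both calls did not hold together in any of these omissions.

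**Figure D4:**
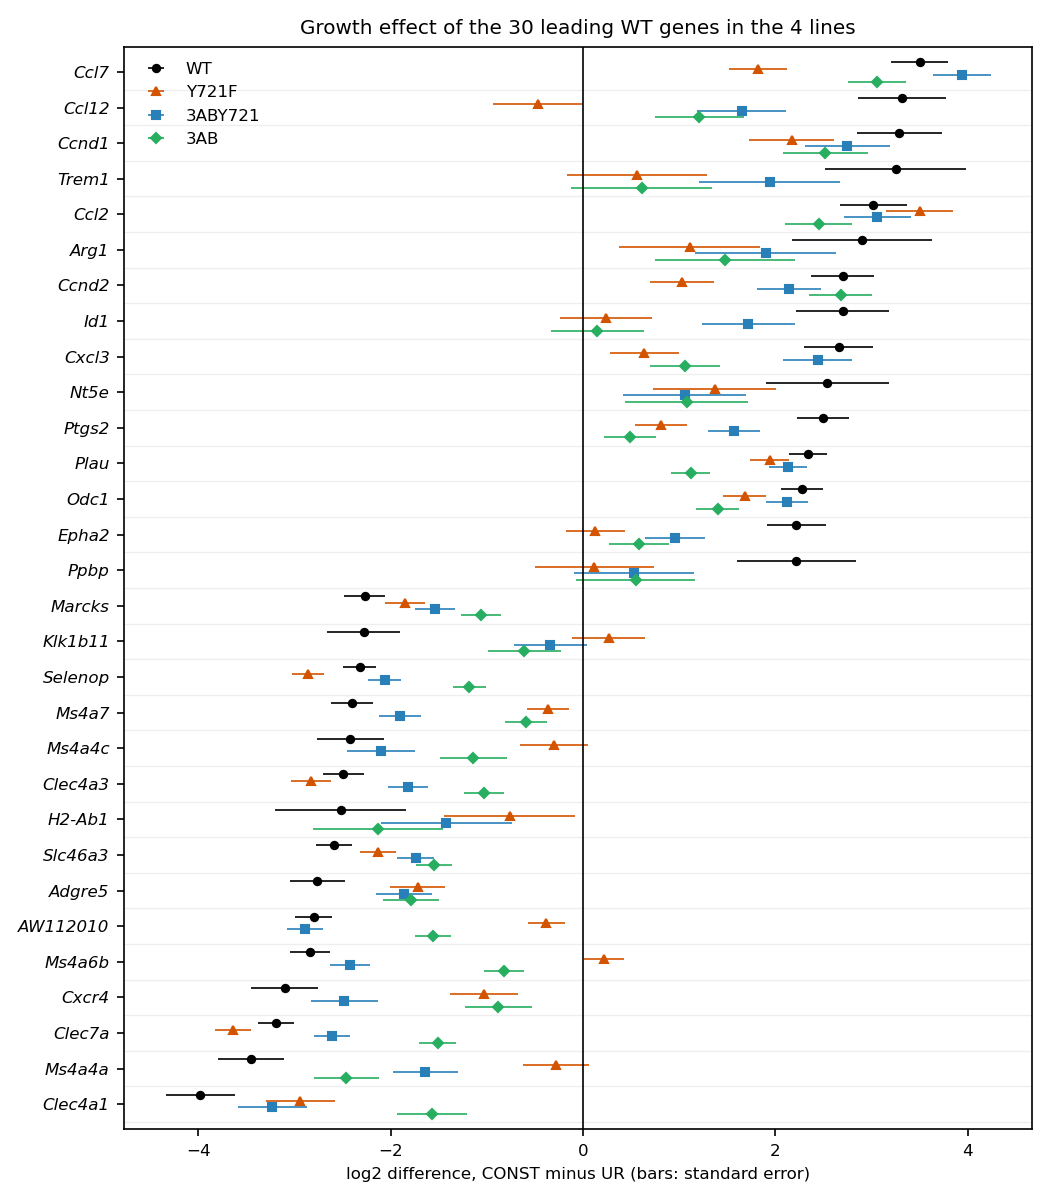
Log2 difference of CONST minus UR (horizontal axis, bars are standard errors) in the 4 lines for the 15 largest rises and 15 largest falls of WT, 2 arrays per group. Ccl7, Ccnd1, Clec7a and Selenop lie on the same side of 0 in all lines, while Ms4a6b, Ms4a7 and Ccl12 in Y721F lie near or across 0.

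Starved WT cells given CSF-1 again provide a separate look at the same genes. At 20 min 31 genes were called higher (0.155%) and 1 lower (0.00502%), at 60 min 109 (0.547%) and 17 (0.0853%), and at 180 min 275 (1.38%) and 156 (0.782%). Of the 459 genes higher in CONST, 451, 455 and 453 had a positive difference at 20, 60 and 180 min. Among all genes 49.7%, 47.3% and 48.9% did. The 459 genes had medians of 0.31, 0.62 and 0.74. At 180 min 98 of them were called higher, 21.4% of the CONST genes and 35.6% of the 180 min genes. Of the 601 lower genes, 533, 577 and 574 had a negative difference, against 49.7%, 52.3% and 50.7% of all genes. The 601 genes had medians of -0.18, -0.4 and -0.56, and 61 were called lower at 180 min (10.1% and 39.1%). All times are compared with the same 0 min arrays, so these counts are not independent of each other. Same-numbered WT arrays of the time course deviated together, at correlations of 0.4872 to 0.7337 over the 6 pairs of times. With the number as a replicate block, an alternative chosen after seeing the data, 81 genes (0.406%) were higher and 5 (0.0251%) lower at 20 min, 551 (2.76%) and 194 (0.973%) at 60 min, and 923 (4.63%) and 634 (3.18%) at 180 min. Of the genes higher in CONST, 292 were then called higher at 180 min (63.6% of the CONST genes and 31.6% of the 180 min genes), and of those lower, 265 were called lower (44.1% and 41.8%).

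Ccl2 differed by 3.02 between CONST and UR, and from 0 min by 3.6, 3.56 and 3.88 at 20, 60 and 180 min. Ccnd1 differed by 3.29 in the steady state and by 1.25, 2.21 and 3.27 over these times, but its replicates disagreed at 20 min (11.74 and 8.08) and the 180 min value missed the threshold (adjusted p = 0.146, and 0.00319 with the block). Cxcr4 differed from 0 min by -0.5, -2.02 and -2.13, the last called (adjusted p = 0.0286), and Mertk by -1.92 at 180 min (adjusted p = 0.0087). The ribosome biogenesis list had 8 rises and a median of 1.12 between CONST and UR, and 8 rises and a median of 1.27 at 180 min, where 22 of its 24 genes were called higher with the block. Fos differed by -0.13 between CONST and UR, and by 3.74 at 20 min, 0.28 at 60 min and 0.95 at 180 min, the last called with the block alone (adjusted p = 0.0363). Mir221 rose by 2.32 at 180 min (adjusted p = 0.00428).

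Whether lectin and MS4A genes were called at 180 min depended on the block. Without it 0 of 19 Ms4a genes were called (limma, 1 lower at an unadjusted p below 0.05). With it Ms4a4a, Ms4a6b and Ms4a7 were called lower, 3 of the 8 that were lower in CONST. Of 33 Clec genes, 0 were called lower without the block. With it 3 were called lower and 3 higher, where 3.18% of all genes were lower and 4.63% higher. Only 2 of the 6 Clec genes lower in CONST were among those lower. Ms4a6b differed by -0.98 (adjusted p = 0.0198 with the block) and Clec4a3 by -0.96 (adjusted p = 0.0184 with the block). Clec7a differed by -0.77 (adjusted p = 0.497, and 0.271 with the block) and Selenop by -0.28 (0.48 with the block). Testing the CONST minus UR difference against the 180 min response gave 0 genes higher (242 at an unadjusted p below 0.05) and 3 lower (0.015%), Selenop, Vcl and Sdc1. Selenop was further down in CONST, by -2.04 (SE 0.32, adjusted p = 0.0163). Vcl, encoding vinculin, and Sdc1, a syndecan, differed by 0.08 and -0.16 between CONST and UR and were called higher at 180 min (1.8 and 1.42). With the block for the time course arrays, 22 genes were lower (0.11%), these 3 and Clec7a, Ms4a6b and Ms4a7 among them, and 1 was higher (0.00502%), Pfkl, a phosphofructokinase subunit (1.31, adjusted p = 0.0288). The steady-state and time course arrays are separate experiments: UR and 0 min cells, both starved, differed in 2645 genes (13.3%), and CONST and 0 min cells in 3917 (19.6%), so experiment and comparison cannot be told apart here.

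**Figure D5:**
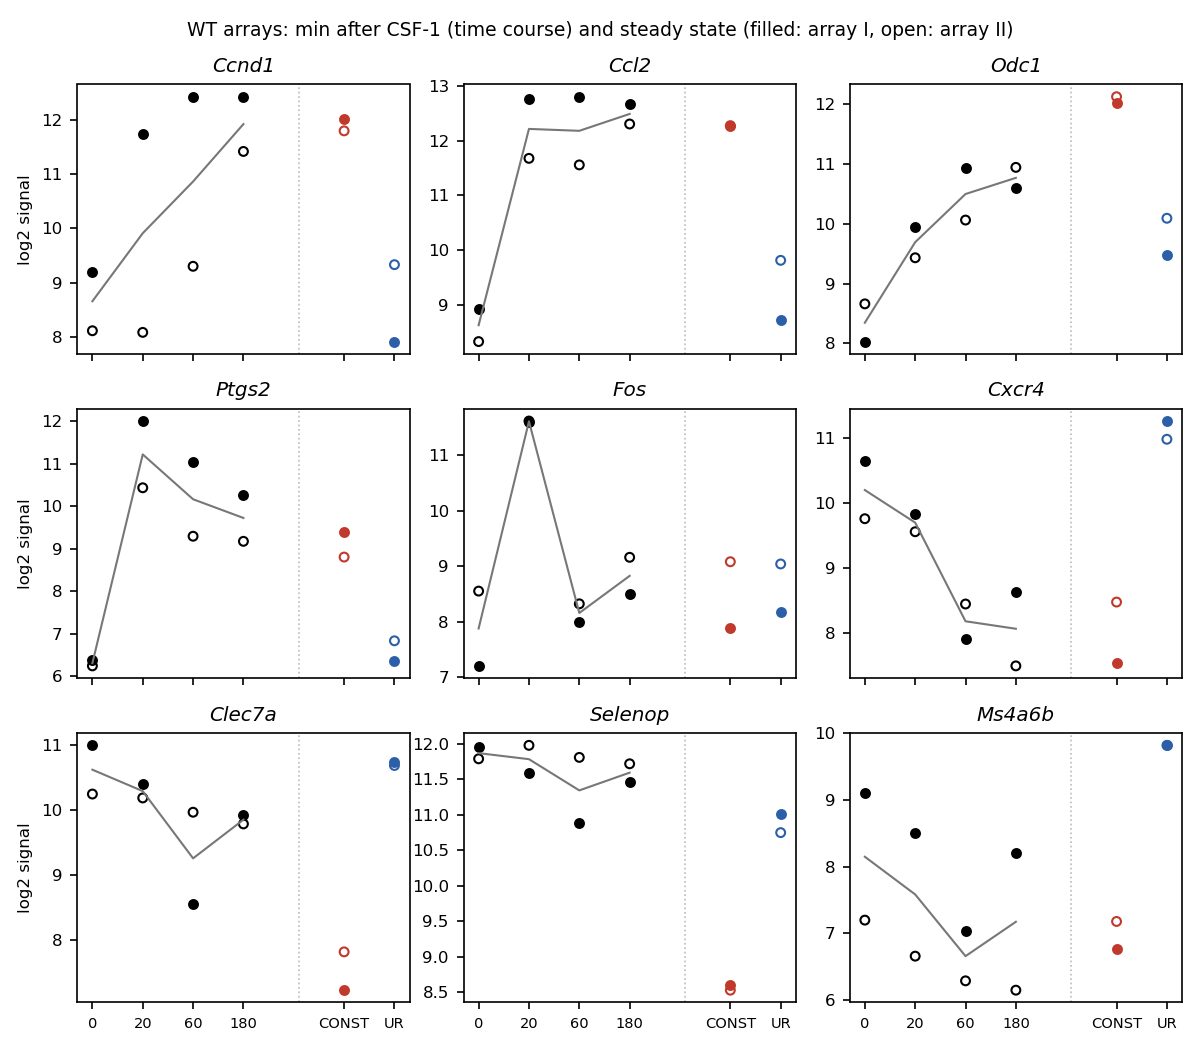
Log2 signal (vertical axis) of 9 genes in WT cells at 0, 20, 60 and 180 min of CSF-1 after starvation and, right of the dotted line, in CONST and UR; each point is 1 array, filled for array I and open for array II, and the line joins the time course means. Selenop and Clec7a are low in CONST but still high at 180 min, whereas Cxcr4 is low in both. The arrays left and right of the dotted line come from separate experiments, so levels across it are not directly comparable.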

How the data were processed

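Total RNA of 32 preparations was hybridised to Affymetrix Mouse Gene 1.0 ST arrays, 1 colour, per the labels. The deposited values are log2 signals per probe set, normalized by the authors before deposit; their background correction and normalization method are not stated in the labels or headers. RNA had an integrity number above 9.5, per the series' design text. No normalization was added. Of 35556 probe sets, 21789 name 1 gene in the platform annotation and 1621 name several; those naming several and the 12146 without an entry were left out. For 999 genes with several probe sets, the one with the highest mean over all arrays was kept, giving 19938 genes. The members and gene lists were chosen with earlier results of these data known.

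The 16 steady-state arrays were fitted together with limma 3.58.1 in R 4.3.3, a mean per group and no covariate (8 residual degrees of freedom), with Benjamini-Hochberg adjustment over all genes; called means adjusted p below 0.05 and fold above 1.5. The 16 time course arrays had their own fit, and the comparison of both experiments used all 32 arrays. Precision is limited by 2 arrays per group. Genes named are the 15 largest rises and falls whose groups do not overlap, up to 4 such members per list, the 5 largest either way in each test between lines, and a set of genes named in any case; others are said to be chosen later or complete a count of called list members. Of 551 list genes, 520 were measured; the rest were not analysed here. Labels number the replicates but give no shared batch. Deviations of same-numbered WT steady-state arrays correlated at 0.2553 over only 2 pairs, so those numbers were not used as pairs. In the WT time course every pair of times correlated at 0.4872 or more, so the fit with a replicate block is given beside those results. The script was tested on simulated data that gave each gene the same spread in every group, so unequal spread between groups was not tested.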

Additional observations from a re-analysis of the deposited data

Results flagged for a closer look

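Growth effects of some genes differed between lines by the test of the difference itself (limma, adjusted over 19938 genes). WT minus Y721F was 3.78 for Ccl12, 1.8 for Adap2 and 1.29 for Tm4sf1, the 3 genes called higher. Of the 15 called lower, those named here are 8, and it was -3.18 for Ms4a4a, -3.06 for Ms4a6b, -2.42 for AW112010, -2.04 for Ms4a7, -2.05 for Ms4a6c, -1.57 for Lilra5, -2.41 for Mrc1 and -2.55 for Rgs17. Rgs17 differed by -0.23 in WT and rose by 2.32 in Y721F, and Adap2 fell by 0.8 in WT and by 2.6 in Y721F, so for these genes the size lay in the Y721F arrays. WT minus 3AB was 1.81 for Tm4sf1 and 1.44 for Susd4. Lilra5 and Ms4a6c were named after their values were seen.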

How the results depend on the processing

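With 2 arrays per group, single arrays set much of the call count. Over the 4 omissions of 1 array, genes higher in CONST ranged from 115 to 962 and lower from 242 to 1032, the count of called list members (99 in all) from 47 to 156, the WT minus Y721F counts from 0 to 98 and 4 to 316, WT minus 3ABY721 from 0 to 21 and 0 to 18, and WT minus 3AB from 0 to 31 and 0 to 61. Of 94 named genes called, 40 kept their call throughout and 54 lost it at least once. Fitting only the 4 WT arrays gave 30 higher, 64 lower and 18 list members, and 65 named genes lost their call. That fit has fewer degrees of freedom and takes its spread from WT alone, whereas the main fit shares it over all lines. Genes over 1.5-fold apart between replicates numbered 1615 in WT CONST and 988 in WT UR. The CONST and UR numbers were 1604 and 712 in Y721F, 234 and 373 in 3ABY721, and 218 and 585 in 3AB. Fitting all 32 arrays gave 292 and 399, with 1 and 3 for WT minus Y721F and 0 higher for WT minus 3AB. With WT 0 min in place of UR there were 1751 higher, 2166 lower and 206 list members; 22 named genes lost their call, and Mrc1 turned to 0.04 (adjusted p = 0.984). The series text's cutoff, without adjustment, gave 789 and 863 genes and 165 list members, and a fold above 2 gave 175 and 206. WT minus Y721F had 1 higher gene without dim genes and 5 with an intensity trend, and WT minus 3AB had 3 lower with median centring. Quantile normalization, median centring, dropping dim genes, the intensity trend and averaging probe sets each kept the higher and lower counts within 1.5 times, and at most 6 named genes lost their call under any 1 of them. The cause of the moved counts was not tested. With a replicate block within each line, 609 genes were higher and 724 lower, with 0 higher for WT minus 3AB; with a replicate block shared by all lines, 536 and 649. Deviations of same-numbered steady-state arrays correlated at 0.04226 to 0.2798 within a line. Between lines they correlated at -0.3282 to 0.283, the highest for WT CONST with Y721F CONST. The block removed 0 and 1 of the 94 named calls. The replicate block in the time course, added after seeing the data, gave 81 higher and 5 lower at 20 min, 551 and 194 at 60 min, 923 and 634 at 180 min, and 1 and 22 for CONST minus UR against the 180 min response.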
